A study of Mus musculus with 4 samples.

Results

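The BMP response genes described here are Id1, Id2, Id3, Id4, Smad6, Smad7, Msx1, Msx2, Bambi and Bmp4. They were taken by symbol from a table of raw read counts and make up 10 of its 24421 genes, and all 10 passed the minimum of 10 counts in at least 1 library that 14393 genes passed. The table holds 4 mRNA-seq libraries from mouse embryos of the ICR strain: 1 of E7.5 WT, 1 of E8.5 WT and 2 of E8.5 Ddx6 -/-, called KO1 and KO2. According to the study, extraembryonic tissue or yolk sac was used for genotyping, and how much of it remained in each library is not known. DDX6 is a DEAD-box RNA helicase of processing bodies that takes part in translational repression and mRNA decay. The Ddx6 KO allele lacks a floxed exon that had been removed with a CAG-Cre line, and mutants came from crosses of heterozygous mice. According to the study, KO1 pooled a pre-head-fold embryo with a head-fold embryo, whereas KO2 pooled only pre-head-fold embryos. KO1 and KO2 therefore differed in the stage of their embryos as well as in the pool. The number of embryos in the WT libraries is not given in the sources used here, and WT variation between embryos was not measured because each stage has 1 library.

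BMP ligands are secreted dimers that assemble type I and type II receptors, which phosphorylate SMAD1, SMAD5 and SMAD9. These bind SMAD4, enter the nucleus and act at target genes, and the Id genes are the most widely used direct targets. In the gastrulating mouse embryo BMP4 from the extraembryonic ectoderm, and later from posterior and extraembryonic mesoderm, is needed for mesoderm, allantois and primordial germ cells. SMAD6, SMAD7 and the pseudoreceptor BAMBI are induced by the pathway and restrain it. The levels of these genes are therefore read as an output of signalling, and the question for these libraries was whether that output differed in Ddx6 KO embryos.

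None of the 10 genes passed the call rule against E8.5 WT, which required a log2 change past 1 in the same direction in both KO1 and KO2. Over all genes kept, 3.44% were called higher and 1.79% lower by the same rule, so that 0 of 10 is close to the background and is not a result about these genes. Within that limit the genes did not move as a block: 6 of 10 (Id1, Id3, Id4, Smad6, Smad7 and Msx2) lay above E8.5 WT in both KO libraries, Id2 lay below it in both, and Msx1, Bambi and Bmp4 lay on opposite sides. The corresponding shares over all genes kept were 36.3% above in both, 37.6% below in both and 25.8% on opposite sides. KO1 and KO2 differed from each other by more than 1 on the log2 scale for Id2, Msx1 and Bmp4.

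SMAD1 and SMAD5 with SMAD4 bind the GC-rich element GGCGCC and the SMAD element GTCT, whose reverse complement is AGAC. Promoters of 7 of the 10 genes were found in RefSeq on GRCm38.p6, each covering 250 bases before to 50 bases after the transcription start, with none for Id1, Smad7 or Bambi. Those of 4 genes are printed here up to the start, from 5′ to 3′ on the gene's strand, because Id2 and Id4 were the only matched genes with GGCGCC and because Msx1 and Bmp4 shared their pattern over the libraries. Capitals mark GGCGCC and GTCT or AGAC. They lie at chr12:25096254-25096342 on the minus strand (Id2), chr13:48260866-48261115 on the plus strand (Id4), chr5:37824586-37824835 on the minus strand (Msx1) and chr14:46390670-46390919 on the minus strand (Bmp4). For Id2 the RefSeq start lies inside the GENCODE gene, which has a longer transcript that begins upstream at base 25097140. The 161 bases next to the RefSeq start belong to an exon of that transcript and are not printed.
Id2: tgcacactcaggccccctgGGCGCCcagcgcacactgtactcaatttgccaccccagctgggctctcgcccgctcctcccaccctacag
Id4: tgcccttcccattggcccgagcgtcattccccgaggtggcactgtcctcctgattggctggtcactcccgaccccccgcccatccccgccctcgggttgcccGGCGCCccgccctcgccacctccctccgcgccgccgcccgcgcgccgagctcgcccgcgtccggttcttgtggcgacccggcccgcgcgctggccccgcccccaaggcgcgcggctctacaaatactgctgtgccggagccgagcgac
Msx1: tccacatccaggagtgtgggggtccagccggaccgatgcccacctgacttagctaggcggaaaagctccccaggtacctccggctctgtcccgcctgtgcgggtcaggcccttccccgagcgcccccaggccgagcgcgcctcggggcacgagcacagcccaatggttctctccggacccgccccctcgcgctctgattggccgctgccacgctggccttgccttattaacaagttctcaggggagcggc
Bmp4: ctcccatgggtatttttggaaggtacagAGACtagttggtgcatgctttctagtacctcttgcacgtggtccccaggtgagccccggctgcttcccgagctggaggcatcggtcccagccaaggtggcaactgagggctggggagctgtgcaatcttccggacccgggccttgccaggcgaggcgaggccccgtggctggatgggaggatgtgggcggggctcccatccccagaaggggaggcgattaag

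GGCGCC, which is its own reverse complement, began 231 bases before the start of Id2 and 148 bases before that of Id4. Of all 32851 promoters of this length, 11.9% held it. GTCT or AGAC occurred once or more in 88% of all promoters, with a mean of 2.27 per promoter. Among the matched genes its number was 3 in Id3, 2 each in Smad6, Msx2 and Bmp4, 1 in Id2 and 0 in Id4 and Msx1, and the pair in Smad6 abut as GTCTAGAC. The AGAC of Id2 and the second match of Bmp4 lie outside the stretches printed. GC content was 60% to 73.3% over the 7 promoters, against a median of 52.7% over all. The GC-rich element was thus held by Id2, which was below E8.5 WT in both KO libraries, and by Id4, which was above it in both.

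DDX6 also acts downstream of microRNAs, so the 3′ UTRs of the 10 genes were searched for matches to the seeds of 4 microRNAs of early embryos. miR-17-5p and miR-92a-3p belong to one cluster on chromosome 14 (chr14:115043684-115043706 and chr14:115044476-115044496, plus strand). miR-291a-3p belongs to a cluster of pluripotent cells on chromosome 7 (chr7:3218968-3218989, plus strand), and let-7a-5p (chr13:48538239-48538260, minus strand) is associated with differentiation. Their mature sequences follow with the seed, bases 2 to 8, in capitals, and the seeds of miR-17-5p and miR-291a-3p overlap when shifted by 1 base.
miR-17-5p: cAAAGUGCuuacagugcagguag
miR-92a-3p: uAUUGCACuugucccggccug
miR-291a-3p: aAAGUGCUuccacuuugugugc
let-7a-5p: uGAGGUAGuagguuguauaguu

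Matches were found in 4 of the 10 genes. Id4, Smad6, Smad7 and Bambi each had 1 match to miR-17-5p, Smad6 and Smad7 each had 1 to miR-92a-3p, Bambi had 1 to miR-291a-3p, and let-7a-5p had none. Over 21018 UTRs of all lengths, 11.8% held a match to miR-17-5p, 6.57% to miR-92a-3p, 14.6% to miR-291a-3p and 9.01% to let-7a-5p. Id1, Id2, Id3, Msx1, Msx2 and Bmp4 had no match to any of the 4. The 3′ UTR of Smad6 is 448 bases long, and of 1903 UTRs within 20% of that length 3.63% held a match to miR-17-5p and 1.79% a match to miR-92a-3p. The 3′ UTR of Bambi is 4004 bases long, and of 1558 UTRs of like length 30.1% matched miR-17-5p and 36.1% miR-291a-3p. For UTRs as long as that of Id4 the share with a match to miR-17-5p was 24.4%, and for those as long as that of Smad7 it was 13.6%, with 6.6% for miR-92a-3p. Log2 changes from E8.5 WT in KO1 and KO2 were 0.70 and 0.73 for Id4 and 0.68 and 0.18 for Smad6. They were 0.13 and 0.30 for Smad7 and 0.36 and -0.06 for Bambi, and a link between matches and levels was not tested. The sites of Id4 and Smad6 are shown with the match in capitals. They span UTR bases 2264 to 2270 in Id4, and in Smad6 233 to 239 for miR-17-5p and 199 to 205 for miR-92a-3p. These genes were picked because their values lay furthest above E8.5 WT in KO1, and the sites of Smad7 and Bambi are not shown. Bmp4, which had no match, stood at 0.67 in KO1 and -0.37 in KO2.
Id4 for miR-17-5p: tgttattaaaaaggGCACTTTt
Smad6 for miR-17-5p: gaaacaagaaagacGCACTTTg
Smad6 for miR-92a-3p: attatttatatatgGTGCAATg

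The libraries held 8198402 to 12562640 counted reads, with KO1 the smallest, and 16511 to 17112 genes had at least 1 count. Ddx6 itself had 2943 counts at E7.5 and 5715 at E8.5 in WT embryos, beside 706 in KO1 and 929 in KO2, with log2 changes from E8.5 WT of -2.47 (KO1) and -2.61 (KO2). Reads from exons that were not deleted also enter this count. KO2 stood apart in markers of other tissues. Summed CPM (counts per 1000000 reads, TMM-normalised) of 5 trophoblast giant cell markers were 2.52 at E7.5 and 0.0814 at E8.5 in WT embryos, beside 0.834 in KO1 and 456 in KO2. Of those 5, Prl3d1 and Prl2c2 passed the minimum, with 4156 and 1400 counts in KO2, and Prl2c2 was at 0 in E8.5 WT. Prl3b1 and Prl7b1 were at 0 in all 4 libraries, and Ctsq had 1 count in KO2 and 0 elsewhere. The sum in KO2 thus came from Prl3d1 and Prl2c2. In these bulk samples fewer cells of a type and less RNA per cell cannot be told apart.

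Levels per length were compared as FPKM, that is, CPM divided by exon length in kilobases. Id3 was the most abundant of the 10 genes, with a mean of 111 FPKM over the 4 libraries and a range of 92 to 138. Id1 followed at 82.1 (73.9 to 89.7) and Msx1 at 55.5 (36 to 73.5). Id2 had a mean of 42.9 FPKM (20.3 to 60.5), Smad6 26.9 (18.4 to 38.2), Bmp4 21.4 (15.2 to 31.4) and Msx2 19.3 (17 to 24.3). The ranges of neighbours from Msx1 down to Msx2 overlapped, so their order is not separated from the spread over libraries. Smad7 (9.55, 8.71 to 10.8) and Bambi (8.53, 4.69 to 11.6) also overlapped, and Id4 was last at 1.69 (0.917 to 2.28). Id3 and Id1, the canonical BMP targets of early embryos and embryonic stem cells, were thus above the other 8 genes in every library.

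**Figure D1:**
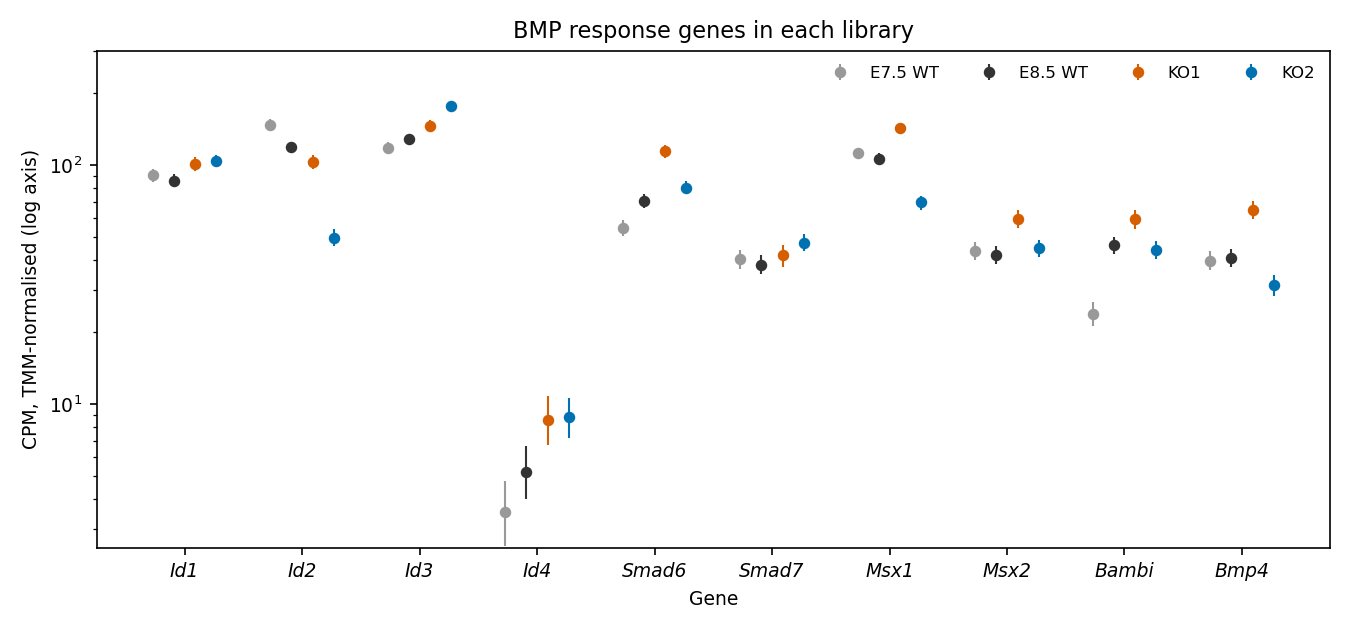
Level of each BMP response gene in each library, in TMM-normalised CPM on a log axis, with points for both WT stages and both KO pools and bars for the exact 95% counting interval. Id1 and Smad7 span a narrow range over the 4 libraries, Id2 is lowest in KO2 at 49.6 CPM, and Id4 has the widest intervals.

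Bmp4 encodes the ligand itself and is placed first among the results. It had 39.7 CPM at E7.5 and 40.8 at E8.5 in WT embryos, beside 64.9 in KO1 and 31.4 in KO2. KO1 lay above both WT libraries and KO2 below both. Relative to E8.5 WT, KO1 had a log2 change of 0.67, with a 95% counting interval of 0.49 to 0.85, and KO2 one of -0.37, with an interval of -0.57 to -0.18. The mean change over the KO libraries was 0.15 ± 0.74 (SD, n = 2), smaller than the difference between them, and edgeR's quasi-likelihood test with Benjamini-Hochberg adjustment over all genes gave an adjusted p of 0.886. The gene lies at chr14:46383520-46390669, and this and the other gene positions are those of GENCODE on GRCm38, the assembly of mm10.

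Id1 to Id4 encode helix-loop-helix proteins without a DNA-binding region that sequester E proteins and hold back differentiation. Id1 (chr2:152736251-152737410) had 90.4 CPM at E7.5 and 85.8 at E8.5 in WT embryos, beside 101 in KO1 and 104 in KO2. Both KO libraries were above both WT libraries, by a small amount. The change from E8.5 WT came to 0.24 for KO1 (95% counting interval 0.10 to 0.37) and 0.28 for KO2 on the log2 scale (0.16 to 0.40), a mean of 0.26 ± 0.03 (SD, n = 2) with an edgeR adjusted p of 0.666. Id1 had the smallest range over the 4 libraries of the 10 genes, 0.28 on the log2 scale, and 10.3% of all genes kept had a smaller one.

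Id3 (chr4:136143497-136145755) had 118 CPM at E7.5 and 128 at E8.5 in WT embryos, beside 146 in KO1 and 176 in KO2. As for Id1, both KO libraries were above both WT libraries. The change from E8.5 WT came to 0.19 for KO1 (0.08 to 0.30) and 0.46 for KO2 on the log2 scale (0.37 to 0.56), with a mean of 0.33 ± 0.19 (SD, n = 2) and an edgeR adjusted p of 0.666.

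Id4 (chr13:48261228-48266026) was the least abundant, with 42 counts at E7.5 and 64 at E8.5 in WT embryos, beside 72 in KO1 and 107 in KO2, or 3.53, 5.21, 8.57 and 8.78 CPM. The KO libraries were again above both WT libraries and close to each other. Relative to E8.5 WT, KO1 had a log2 change of 0.70 and KO2 one of 0.73, a mean of 0.72 ± 0.02 (SD, n = 2) with an edgeR adjusted p of 0.671. The SD between the KO libraries is far below the counting error of so few reads, since the interval of KO2 against KO1 was -0.41 to 0.49.

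Id2 was the exception in the family. It (chr12:25093799-25097140) had 147 CPM at E7.5 and 119 at E8.5 in WT embryos, beside 103 in KO1 and 49.6 in KO2. Both KO libraries were below both WT libraries, KO1 slightly and KO2 clearly. Relative to E8.5 WT, KO1 had a log2 change of -0.21 (-0.33 to -0.09) and KO2 one of -1.26 (-1.40 to -1.12), the latter a level 2.39-fold lower. The mean was -0.73 ± 0.74 (SD, n = 2), and edgeR's adjusted p was 0.694. Over all genes kept, 4.34% had a lower change than Id2 in KO2 and 28% in KO1. Of the 10 genes Id2 also had the largest range over the 4 libraries, 1.57 on the log2 scale.

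The summed level of the family varied less than its composition. Summed over Id1 to Id4, the level was 231 FPKM at E7.5 and 224 at E8.5 in WT embryos, beside 246 in KO1 and 250 in KO2. Id2 made up 26.2% of that sum at E7.5 and 21.7% at E8.5 in WT embryos, beside 17.1% in KO1 and 8.13% in KO2. The share of Id3 was 39.8%, 44.6%, 46.5% and 55.1% in the same order, whereas that of Id1 stayed between 33% and 35.9%. Id4 contributed 0.397%, 0.605%, 0.907% and 0.912%. The ratio of Id3 to Id2 was accordingly 1.52 at E7.5 and 2.05 at E8.5 in WT embryos, beside 2.71 in KO1 and 6.77 in KO2. No test was made of these shares, and most of the difference from E8.5 WT lay in KO2.

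**Figure D2:**
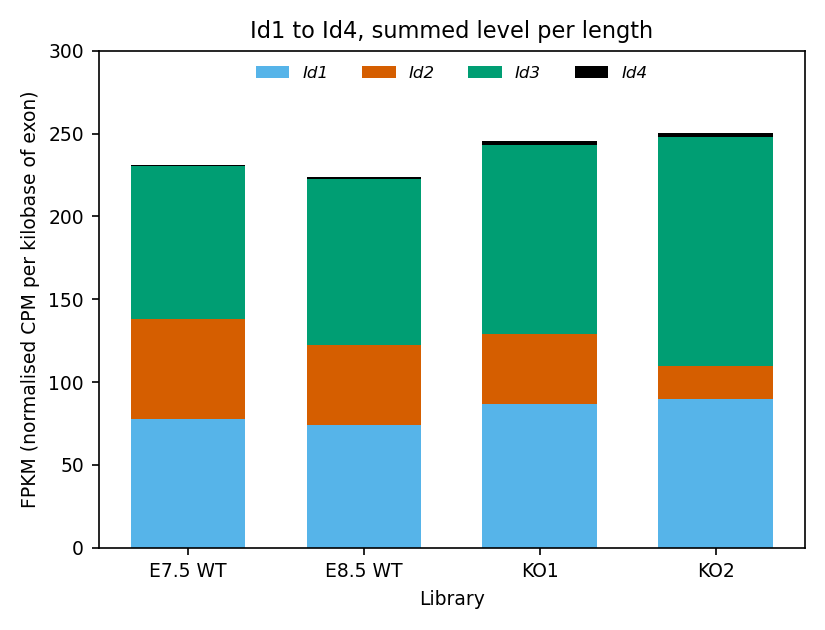
Stacked FPKM of Id1, Id2, Id3 and Id4 in each library, 1 bar per library, with bar height giving the sum. The sums lie between 224 and 250 FPKM, and the Id2 segment shrinks from 21.7% in E8.5 WT to 8.13% in KO2 while Id3 takes 55.1% there.

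Msx1 and Msx2 encode homeodomain repressors that BMP induces in mesoderm, neural folds and extraembryonic tissue. Msx1 (chr5:37820485-37824583) had 112 CPM at E7.5 and 106 at E8.5 in WT embryos, beside 142 in KO1 and 69.6 in KO2. As for Bmp4, KO1 was the highest library and KO2 the lowest. The change from E8.5 WT came to 0.42 for KO1 (0.31 to 0.54) and -0.60 for KO2 on the log2 scale (-0.73 to -0.48), for a mean of -0.09 ± 0.73 (SD, n = 2) and an edgeR adjusted p of 0.999.

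Msx2 (chr13:53466884-53473074) had 43.6 CPM at E7.5 and 41.8 at E8.5 in WT embryos, beside 59.5 in KO1 and 44.8 in KO2. KO1 alone stood above the other libraries. The change from E8.5 WT came to 0.51 for KO1 (0.33 to 0.69) and 0.10 for KO2 on the log2 scale (-0.08 to 0.28), and the adjusted p of edgeR's test was 0.702 for a mean of 0.30 ± 0.29 (SD, n = 2). Per length, Msx1 exceeded Msx2 by a ratio of 3.24 at E7.5 and 3.21 at E8.5 in WT embryos, beside 3.03 in KO1 and 1.97 in KO2, so that the ratio of KO1 was near those of WT and that of KO2 was not.

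The induced inhibitors of the pathway come next. Smad6 (chr9:63953076-64022059), which favours the BMP branch, had 54.6 CPM at E7.5 and 70.8 at E8.5 in WT embryos, beside 114 in KO1 and 80.2 in KO2. Both KO libraries were above both WT libraries, KO1 the more so. Relative to E8.5 WT, KO1 had a log2 change of 0.68 (0.55 to 0.82) and KO2 one of 0.18 (0.05 to 0.31), with a mean of 0.43 ± 0.35 (SD, n = 2) and an edgeR adjusted p of 0.674.

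Smad7, on chromosome 18, inhibits both the BMP and the TGF-β and Nodal branches. Its levels were 40.2 CPM at E7.5 and 38.2 at E8.5 in WT embryos, beside 41.8 in KO1 and 47.2 in KO2, so that all 4 libraries were close. The change from E8.5 WT came to 0.13 for KO1 (-0.07 to 0.33) and 0.30 for KO2 on the log2 scale (0.13 to 0.49), and edgeR's adjusted p was 0.722 for a mean of 0.22 ± 0.12 (SD, n = 2). Per length, Smad6 exceeded Smad7 by a ratio of 2 at E7.5 and 2.73 at E8.5 in WT embryos, beside 4.01 in KO1 and 2.5 in KO2.

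Bambi, also on chromosome 18, had 23.8 CPM at E7.5 and 46.1 at E8.5 in WT embryos, beside 59.1 in KO1 and 44.1 in KO2. E7.5 WT was the low library and the 3 libraries of E8.5 were closer to each other. Relative to E8.5 WT, KO1 had a log2 change of 0.36 (0.18 to 0.54) and KO2 one of -0.06 (-0.23 to 0.11), with a mean of 0.15 ± 0.30 (SD, n = 2) and an edgeR adjusted p of 0.842.

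**Figure D3:**
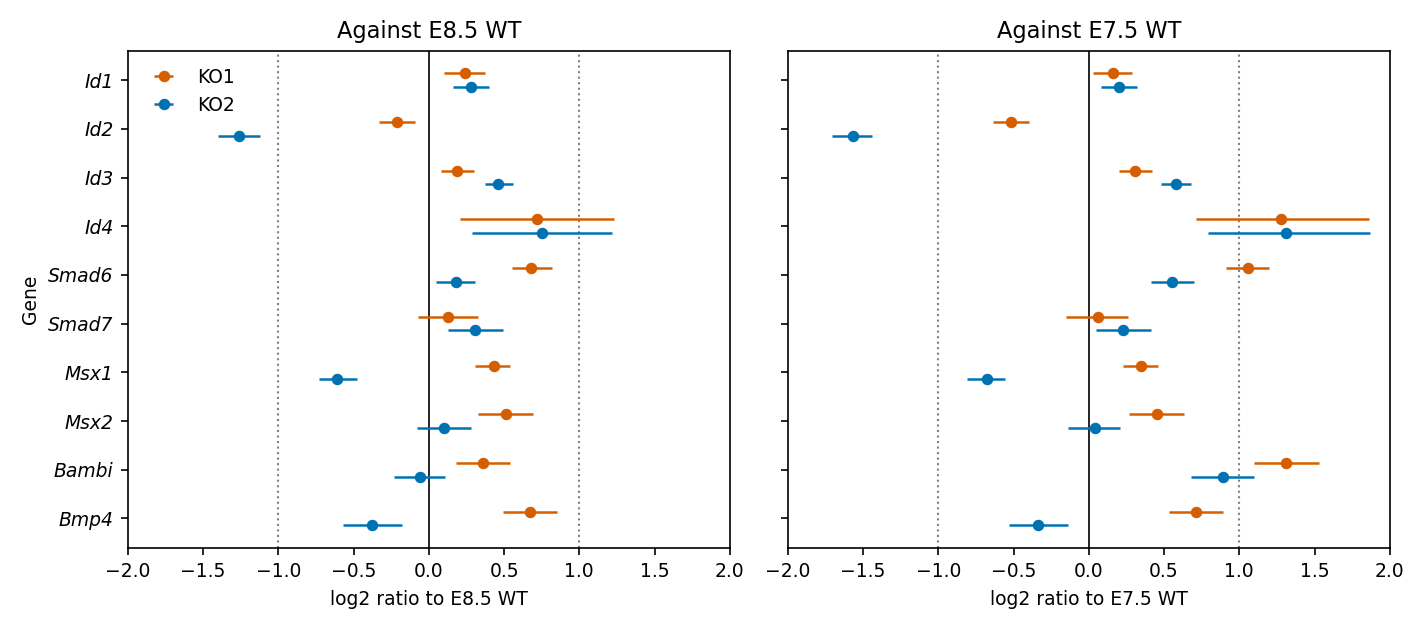
log2 ratio of KO1 and KO2 to E8.5 WT (left) and to E7.5 WT (right) for each BMP response gene, with exact 95% counting intervals as bars and dotted lines at -1 and 1. Against E8.5 WT only Id2 in KO2 lies past a dotted line, and Msx1 and Bmp4 lie on opposite sides of 0 in KO1 and KO2. Ratios were taken without a prior count and differ from the text for Id4 by at most 0.04.

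Over the whole comparison with E8.5 WT, the counting intervals of 4 of 10 genes (Id1, Id3, Id4 and Smad6) lay above 0 in both KO libraries and that of Id2 lay below 0 in both. Over all genes kept, the intervals of 13.7% lay above 0 in both and those of 15.8% below, and they cover counting error only, not differences between embryos. The 10 genes had a median log2 change of 0.39 for KO1 and 0.14 for KO2, against medians of -0.01 and -0.00 over all genes kept. For Id2, Msx1, Bambi and Bmp4 the SD between KO libraries was at least as large as the mean change. edgeR called 0 of 10 genes at an adjusted p under 0.05, and 0 of all genes (0%), and by either tool none of the 10 had an unadjusted p under 0.05, where 7.31% of all genes did in edgeR, so that 0 of 10 is near the background. DESeq2 called 0 of 10 and 31 of all genes. These p-values rest on the spread of a single pair of KO pools set against 1 WT library.

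A missed threshold does not show equal levels, and the DESeq2 95% intervals give a range of change for each gene. They rest on a single pair of KO pools and 1 WT library, so variation between WT embryos is not in them. No share over all genes was taken for the counts that follow. The interval of 8 of 10 genes (all but Id2 and Id4) lay wholly above a log2 change of -1. It was -0.30 to 0.81 for Id1, -0.18 to 0.84 for Id3, -0.23 to 1.12 for Smad6 and -0.78 to 0.78 for Msx1. For Id2 it was -1.43 to 0.15 and for Id4 -1.10 to 2.56. For 4 of 10 genes (Id1, Id3, Msx1 and Bambi) the interval lay between -1 and 1.

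**Figure D4:**
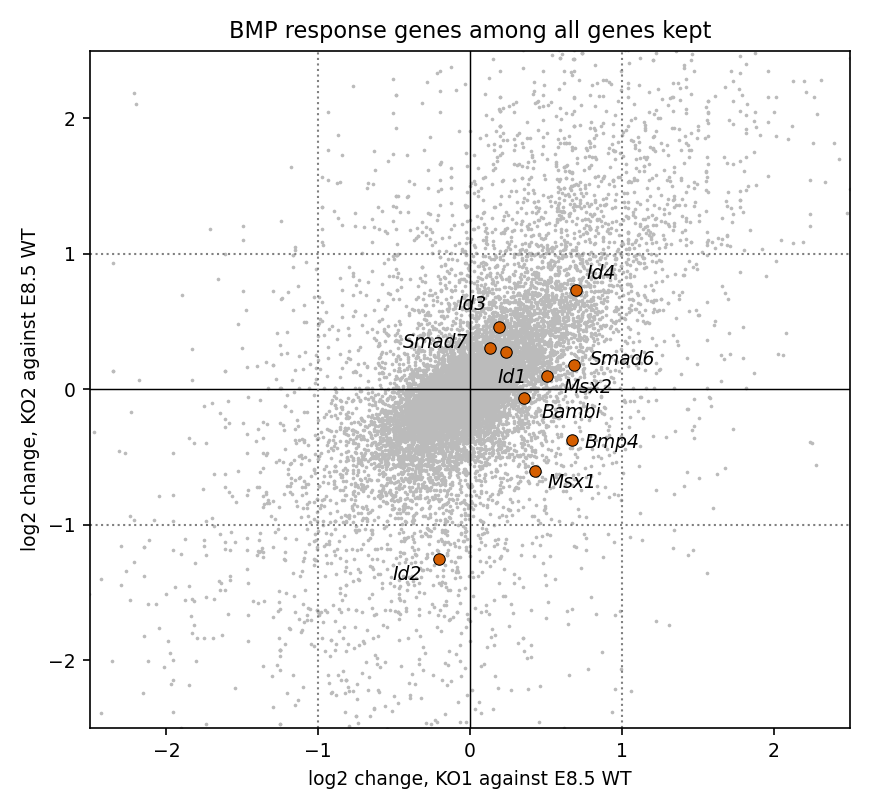
log2 change against E8.5 WT in KO1 (horizontal axis) and KO2 (vertical axis) for all 14393 genes kept (grey) and the 10 BMP response genes (orange), with dotted lines at -1 and 1. The axes stop at 2.5 on either side, which leaves 497 genes outside. No orange point lies in a corner past both dotted lines, Id2 lies past -1 in KO2 only, and Msx1, Bambi and Bmp4 lie right of and below 0.

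The difference between the KO libraries gives the spread behind these means. Id2 (-1.05), Msx1 (-1.03) and Bmp4 (-1.04) were past -1 in KO2 against KO1, 3 of 10 genes where 4.89% of all genes kept were, and 0 were past 1 where 5.99% of all genes were. Smad6 (-0.50), Bambi (-0.42) and Msx2 (-0.41) were also lower in KO2, with counting intervals below 0. Id3 was higher by 0.27 with an interval above 0, while the intervals of Id1, Id4 and Smad7 spanned 0. There is no test of this difference, since each pool is 1 library. Several marker lists moved with it. Summed CPM of 5 mesoderm markers were 79.4 at E7.5 and 273 at E8.5 in WT embryos, beside 309 in KO1 and 67.5 in KO2, and those of 4 allantois markers were 34, 117, 81 and 14.6. The allantois sum in KO1 came mostly from Postn, with 409 counts, while Tbx4 had 799 counts in E8.5 WT against 56 in KO1. Of the 2 lists, 4 of 5 mesoderm markers and 3 of 4 allantois markers were past -1 in KO2 against KO1. The 4 epiblast markers had 507, 71.4, 139 and 601 summed CPM, and all 4 were past 1. Markers of extraembryonic ectoderm summed to 151, 5.04, 11 and 59.5 and those of decidua to 143, 3.34, 10.5 and 223. The first sum in KO2 came mostly from Rhox6 (376 counts) and Rhox9 (252). Elf5, Esrrb and Ascl2 had 10, 33 and 54 counts in KO2, beside 795, 532 and 358 in E7.5 WT. The decidua sum in KO2 came mostly from Prl8a2 (1433 counts) and Cyp11a1 (1213), while Prl3c1 had 25 and Htra3 45. Visceral endoderm markers summed to 4280, 4869, 2490 and 2368, and neural markers to 123, 223, 142 and 270. The neural sum in KO2 came mostly from Otx2, with 2059 counts, which the epiblast also expresses, while Sox1 and Pax6 were at -2.56 and -1.54 in KO2 against KO1. The part of these tissues in the Id2, Msx1 and Bmp4 values was not tested.

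E7.5 WT serves as a younger reference for the delayed KO embryos, and this comparison shares the KO libraries with the one above. Id4 was called higher, with a log2 change of 1.24 in KO1 and 1.27 in KO2, which makes 1 of 10 genes called higher where 6.91% of all genes kept were, and 0 called lower where 2.7% were. Bambi was higher by 1.31 in KO1 and 0.89 in KO2 (mean 1.10 ± 0.30, SD, n = 2, edgeR adjusted p = 0.14), and Smad6 by 1.05 and 0.55 (0.80 ± 0.35, edgeR adjusted p = 0.181). Id2 had log2 changes of -0.52 (KO1) and -1.57 (KO2), with a mean of -1.05 ± 0.74 (SD, n = 2, edgeR adjusted p = 0.277). Id1, Id3 and Smad7 lay above E7.5 WT in both KO libraries with changes of at most 0.58. Msx2 did too, at 0.45 and 0.04, but its KO2 value became -0.00 with DESeq2 size factors. Msx1 (0.35 and -0.68) and Bmp4 (0.71 and -0.33) were again on opposite sides. edgeR called 0 of 10 genes and 0 of all genes (0%), and 3 of 10 (Bambi, Smad6 and Id4) had an unadjusted p under 0.05 where 24.4% of all genes did. DESeq2 also called 0 of 10, with the smallest adjusted p for Bambi at 0.101, and called 728 of all genes.

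Between the WT stages none of the 10 genes was past 1 or -1 in E8.5 WT against E7.5 WT, where 12.2% of all genes kept were past 1 and 7.82% past -1. Among the 8921 genes within the range of level of the 10, 13.4% were past 1 or -1, so that 0 of 10 is near the background. Bambi came nearest, with a log2 change of 0.95 and a counting interval of 0.74 to 1.16. Smad6 was higher by 0.37 (0.23 to 0.52), Id3 by 0.12 and Id4 by 0.54 (raw ratio interval -0.02 to 1.16), and Id2 had a log2 change of -0.31 (-0.42 to -0.21). Id1, Smad7, Msx1, Msx2 and Bmp4 were within 0.08 of 0. The median absolute change of the 10 genes was 0.10, against 0.47 over all genes kept and 0.41 over those within the same range of level. With 1 library per stage there is no test.

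The genes whose pattern over the 4 libraries was nearest to that of a BMP response gene were ranked by the Euclidean distance between centred log2 profiles, among the 11221 genes that averaged 50 counts or more. Nearest to Id1 were Cpt1c (distance 0.019), Golga5 (0.029) and Fam13c (0.032). Msx2 was nearest to Arhgap23 (0.042), Apbb1 (0.056) and Acox3 (0.057). Bmp4 had Akr1b8 (0.207), Phlda1 (0.224) and Anxa6 (0.228), and Msx1 ranked 15 among its neighbours at a distance of 0.306. Bmp4 was in turn the nearest of the 10 genes to Msx1, at rank 19. With 4 libraries many genes share any given profile, so these neighbours are a description.

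The rest of the pathway was described from lists by the same call rule. Against E8.5 WT that rule called 3.44% of all genes kept higher and 1.79% lower. Among 8 BMP ligands with enough counts, Bmp8a was called higher against E8.5 WT and 0 lower. Bmp8a had 2 counts in E8.5 WT, below the floor of 3, against 9 in KO1 and 15 in KO2, and its reads are hard to separate from those of its near-identical neighbour Bmp8b. Bmp2, which acts in extraembryonic mesoderm and endoderm, was above E8.5 WT by 0.37 in KO1 and 0.54 in KO2, and Bmp7 had log2 changes of -0.21 and -0.58. Bmp10 and Gdf7 did not pass the minimum.

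Of 10 receptors and co-receptors, 0 were called in either direction against E8.5 WT. Over all genes kept, 3.44% were called higher and 1.79% lower. Thus 0 called here, and among the SMADs and dampers that follow, is near the background. Bmpr1a, the main type I receptor of the early embryo, had log2 changes of -0.10 in KO1 and -0.31 in KO2, and Bmpr2 had -0.05 and -0.24. Acvrl1 (-1.05), Eng (-1.27) and Rgma (-1.43) were past -1 in KO2 but at -0.33, 0.16 and -0.21 in KO1. None of the 4 SMADs that carry the signal was called. Smad1 stood at 0.14 and 0.25, Smad5 at -0.11 and -0.13, Smad9 at -0.16 and -0.59 and Smad4 at 0.30 and 0.17. Of 6 intracellular dampers 0 were called, with the ubiquitin ligase Smurf1 at 0.59 and 0.51 and the co-repressor Skil at -0.20 and 1.02.

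The genes listed as secreted antagonists encode proteins that bind BMP ligands outside the cell and can keep them from receptors. Of 10 described, 4 were called higher than E8.5 WT in both KO libraries (Bmper, Cer1, Chrd and Nbl1) and 1 lower (Grem1). The shares called over all genes kept were 3.44% higher and 1.79% lower. The median log2 change of the 10 antagonists was 0.78 in KO1 and 1.44 in KO2, where that of all genes kept was -0.01 and -0.00. The study examined negative regulators of this pathway on these same libraries, so the list is not independent evidence of its direction. Chrd, chordin of the node and axial mesoderm, had 345 counts at E7.5 and 77 at E8.5 in WT embryos, beside 151 in KO1 and 541 in KO2. Cer1, of the anterior visceral and definitive endoderm, had 835, 135, 202 and 2021 counts in the order E7.5 WT, then E8.5 WT, KO1 and lastly KO2. Against E7.5 WT these genes were on opposite sides in KO1 and KO2, at -0.68 and 0.61 for Chrd and -1.54 and 1.24 for Cer1. The summed epiblast markers given above had the same order of libraries as these genes, lowest in E8.5 WT and highest in KO2, and their part in these values was not tested. Bmper was above both WT stages in both KO libraries, with 89 counts at E7.5 and 98 at E8.5 in WT embryos, beside 199 in KO1 and 358 in KO2. Nog, or noggin, had log2 changes of 0.83 and 0.22 against E8.5 WT and was called higher against E7.5 WT at 1.71 and 1.10. Against E8.5 WT edgeR called 0 of the 10 antagonists, with adjusted p-values of 0.666 to 0.727, and DESeq2 called 0. Against E7.5 WT edgeR again called 0, whereas DESeq2 called 2, Bmper (adjusted p = 0.0491) and Twsg1 (adjusted p = 0.000792).

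**Figure D5:**
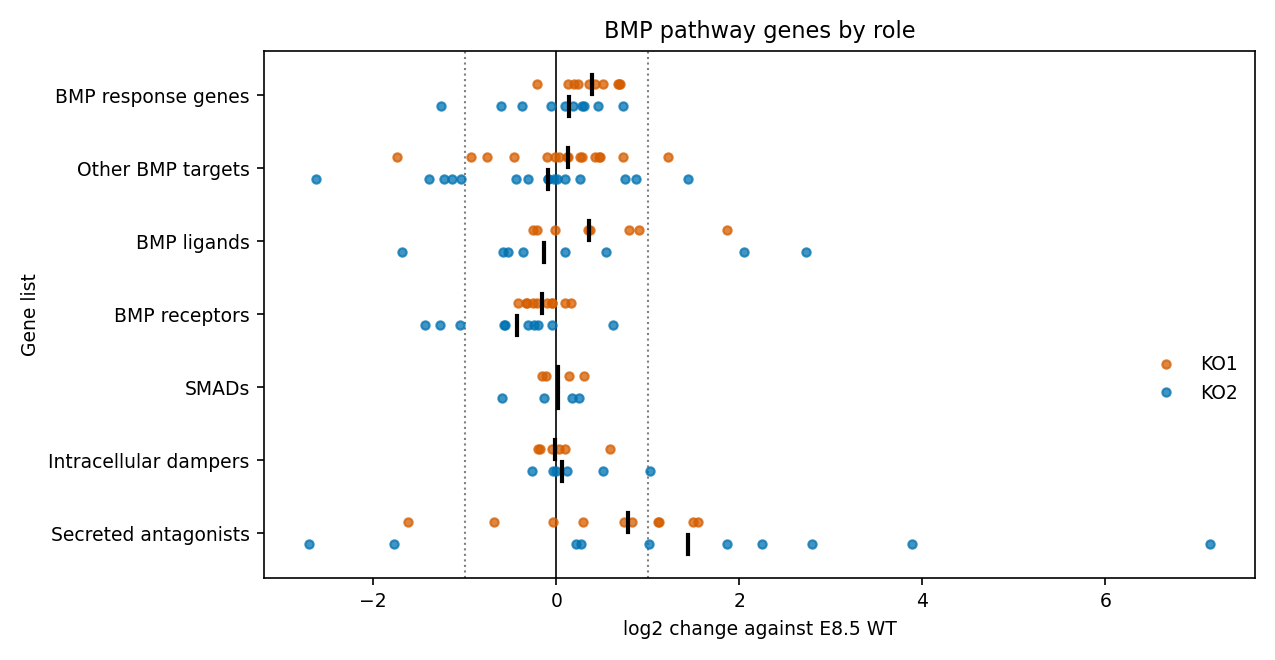
log2 change against E8.5 WT of each gene in 7 lists of BMP pathway genes, with KO1 and KO2 as separate rows of points, a black bar at each list's median and dotted lines at -1 and 1. The 10 BMP response genes have medians of 0.39 in KO1 and 0.14 in KO2, whereas the secreted antagonists have medians of 0.78 and 1.44 and the widest spread.

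A further 16 genes known to respond to BMP were counted in the same way. Of these 0 were called higher and 1 lower (Tlx2) against E8.5 WT, and their medians were 0.13 in KO1 and -0.09 in KO2. Among all genes kept, 3.44% were called higher and 1.79% lower, so that 0 called higher is near the background. Tlx2, a target in the primitive streak, had 8 counts at E7.5 and 49 at E8.5 in WT embryos, beside 9 in KO1 and 6 in KO2. Hand1, a regulator of extraembryonic mesoderm, heart and trophoblast giant cells, had 2570, 2229, 3544 and 4028 counts, and KO1 was 1.22 and KO2 0.87 above E8.5 WT on the log2 scale. DESeq2 called it with an adjusted p of 0.00483, whereas edgeR gave 0.666. Trophoblast giant cell markers summed to 7 counts in KO1, where Hand1 was 1.22 above E8.5 WT, and to 5557 in KO2, and their part in the Hand1 values was not tested. Gata4, of endoderm and heart, was at 0.26 in both, Tbx3 at 0.03 and -0.09, and Gata3 at 0.13 and -0.03. Prdm1, which marks germ cell precursors and visceral endoderm, was at -0.93 and -1.14, and Tbx2 at -0.76 and -1.04. Atoh8 (-0.10 and -1.39) and Dlx3 (0.42 and -1.23), like Prdm1 and Tbx2, were past -1 in KO2 alone, as was Id2. Of all genes kept, 15.3% were past 1 or -1 in KO2 against E8.5 WT.

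The study also measured genes that SMAD1 and SMAD5 repress in embryonic stem cells. Of these, 0 of 4 were called against E8.5 WT, where 3.44% of all genes kept were called higher and 1.79% lower. In so short a list 0 called is near the background. Asic4 had 30 counts at E7.5 and 11 at E8.5 in WT embryos, beside 35 in KO1 and 23 in KO2, with log2 changes of 2.02 and 0.94, and Kdm6b stood at 0.23 and -0.18. The E proteins that Id proteins bind were called in neither direction, which is likewise near the background. Tcf3 was at -0.17 and -0.21, Tcf4 at 0.16 and -0.39, and Tcf12 at 0.03 and -0.14.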

How the data were processed

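RNA-seq libraries were made with a stranded poly(A) kit from ICR embryos. According to the study's methods and processing notes, the authors trimmed reads with Cutadapt 2.8, aligned them to mm10 with HISAT2 2.1.0 and counted exonic reads per gene by strand with featureCounts 2.0.0. The deposited values are raw counts per gene. From these, TMM factors over the whole table, log2 CPM with a prior count of 2, FPKM over the union of exons in GENCODE vM21 and edgeR 4.0.16 quasi-likelihood F-tests (two-sided, all 4 libraries in 3 groups, Benjamini-Hochberg adjustment over 14393 genes) were computed in R 4.3.3, with DESeq2 1.42.0 as an alternative. The groups came from the sample labels. A gene was called when its log2 change was past 1 in both KO libraries. Counting intervals are exact (Clopper-Pearson, 95%) and cover counting error only. The code was tested on simulated data.

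The 10 genes, the pathway and marker lists and the microRNAs were chosen with earlier results of these data known. Named genes were the 10 members, any gene of the lists, Ddx6 and the 3 nearest neighbours of Id1, Bmp4 and Msx2. The neighbours of Id2 in the closing section fall outside this rule. A gene of the secreted antagonist list is not reported here, and the counts and medians of that list leave it out. Nothing says whether the KO pools shared litters. Other scalings, count minimums, prior counts and thresholds, and leaving out either KO library, were the alternatives.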

Additional observations from a re-analysis of the deposited data

How the results depend on the processing

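Other scalings (DESeq2 size factors, plain CPM), other count minimums and a prior count of 0.5 left the counts of called genes and the medians of the 10 genes within the limits set, and no called value reversed. Of 341 recomputed values, 327 stayed within those limits and 14 did not. With a threshold of 2 in place of 1, the number called higher against E7.5 WT went from 1 to 0 and the number lower in KO2 than in KO1 from 3 to 0. Leaving out KO1 made 1 gene (Id2) called lower, against E8.5 WT and against E7.5 WT, where leaving out KO2 gave 0. Against E7.5 WT the number called higher was 1 without KO1 and 3 without KO2, and the median log2 change was 0.22 to 0.40. With either KO library left out, a single KO library set each call and median. Per length, Id2 moved from 42.9 to 53.1 FPKM with the longest transcript. No paired analysis was possible because each WT stage has 1 library and the groups share fewer than 2 replicate numbers. With a biological coefficient of variation of 0.275 from a single pair of pools, small changes could not be tested.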

Other observations

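The 3 genes with the pattern nearest to Id2 over the 4 libraries were Wnk4 (distance 0.198), Notch4 (0.214) and Atoh8 (0.247), among 11221 genes ranked. Atoh8 is itself known as a BMP target and had 195 counts at E7.5 and 141 at E8.5 in WT embryos, beside 90 in KO1 and 52 in KO2. These neighbours were chosen after their values were seen.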
